A study of Homo sapiens with 18 samples.

Results

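GR occupancy was examined around 10 genes of fasting metabolism (PDK4, PCK1, TAT, ANGPTL4, FOXO1, FOXO3, PPARGC1A, PFKFB3, IRS2 and TXNIP) in 6 lists of GR binding regions (GBR). A GBR was assigned to a gene when its summit was no more than 100 kb from the TSS of its canonical transcript (GENCODE release 44, GRCh38). In the list from cells depleted of Hic-5, 25 of 9533 GBR met this rule, and they are called fasting GBR here. No GBR assigned to these genes in any other list lay outside these 25. The U2OS-GRα cells used are a human osteosarcoma line (U2OS) that stably carries the glucocorticoid receptor GRα, and all of them received dex, a synthetic glucocorticoid, at 100 nM for 1 h, 48 h after siRNA transfection. The control combination contained non-specific siRNA only (siNS/siNS). The others depleted Hic-5 (siHic5/siNS), CHD9 (siCHD9/siNS), BRM (siBRM/siNS), Hic-5 together with CHD9 (siCHD9/siHic5) or Hic-5 together with BRM (siBRM/siHic5). Each list came from 2 pooled ChIP libraries, so it is 1 value per combination with no spread between replicates, and no cells without dex were part of it. The lists hold no expression values, so the depletions and the cell identity could not be checked in them.

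Glucocorticoids are hormones of fasting and stress. Through GR they raise the output of enzymes that make glucose in the liver, restrain the use of glucose in other tissues and favor the release and burning of fat, and insulin opposes many of these actions. GR binds as a dimer to the glucocorticoid response element (GRE), often next to other factors. FOXO proteins, which insulin signaling keeps out of the nucleus, are known partners at fasting genes. CHD9 and BRM are ATPases that remodel chromatin, and Hic-5 is a GR coregulator that limits GR access at part of its sites.

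The sequences that follow show the reference DNA under the summits these results turn on: for every gene with a GBR, the one called in the most lists (of several in the same number of lists, the one with the highest −log10 p in siHic5/siNS), then the strongest fasting GBR called only in siHic5/siNS, and last the displaced TXNIP summit described later. Each is 201 bases of the plus strand of GRCh38 centered on the summit, with matches to the GRE consensus (at most 1 mismatch) in capitals.
PDK4, 46.2 kb downstream, chr7:95550252-95550452: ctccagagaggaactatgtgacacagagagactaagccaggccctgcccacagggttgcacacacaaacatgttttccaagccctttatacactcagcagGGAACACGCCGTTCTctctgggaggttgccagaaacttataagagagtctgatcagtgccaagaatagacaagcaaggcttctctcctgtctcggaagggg
PCK1, 41.5 kb upstream, chr20:57519461-57519661: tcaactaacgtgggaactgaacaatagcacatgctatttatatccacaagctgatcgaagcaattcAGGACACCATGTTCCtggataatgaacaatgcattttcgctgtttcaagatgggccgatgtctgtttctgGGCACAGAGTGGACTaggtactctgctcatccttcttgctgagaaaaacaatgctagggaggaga
ANGPTL4, 8.27 kb upstream, chr19:8355790-8355990: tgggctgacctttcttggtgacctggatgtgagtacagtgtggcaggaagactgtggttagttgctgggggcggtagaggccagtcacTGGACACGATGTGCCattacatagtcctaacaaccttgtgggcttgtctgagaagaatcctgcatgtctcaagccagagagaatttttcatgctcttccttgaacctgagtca
FOXO3, 93.3 kb downstream, chr6:108654094-108654294: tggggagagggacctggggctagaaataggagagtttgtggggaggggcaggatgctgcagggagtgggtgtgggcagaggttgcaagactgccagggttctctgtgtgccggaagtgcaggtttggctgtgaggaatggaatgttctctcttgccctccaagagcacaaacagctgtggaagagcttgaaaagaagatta
PPARGC1A, 41.0 kb upstream, chr4:23930983-23931183: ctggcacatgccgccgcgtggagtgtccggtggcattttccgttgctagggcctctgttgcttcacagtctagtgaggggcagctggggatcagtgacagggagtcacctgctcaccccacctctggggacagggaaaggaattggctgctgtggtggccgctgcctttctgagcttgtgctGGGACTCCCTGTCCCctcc
PFKFB3, 10.6 kb upstream, chr10:6192198-6192398: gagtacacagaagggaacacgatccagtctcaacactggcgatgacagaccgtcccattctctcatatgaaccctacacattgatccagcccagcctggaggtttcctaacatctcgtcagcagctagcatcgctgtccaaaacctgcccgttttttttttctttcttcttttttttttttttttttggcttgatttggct
IRS2, 88.8 kb upstream, chr13:109875277-109875477: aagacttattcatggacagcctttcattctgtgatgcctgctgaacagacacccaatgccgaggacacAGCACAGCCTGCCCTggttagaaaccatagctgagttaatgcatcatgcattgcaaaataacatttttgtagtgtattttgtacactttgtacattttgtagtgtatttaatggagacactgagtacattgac
TXNIP, 802 bp upstream, chr1:145997281-145997481: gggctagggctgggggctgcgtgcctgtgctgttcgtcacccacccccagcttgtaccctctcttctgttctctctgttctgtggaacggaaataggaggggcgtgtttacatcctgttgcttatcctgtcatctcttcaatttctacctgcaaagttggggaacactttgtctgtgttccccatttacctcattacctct
PDK4, 12.5 kb upstream, siHic5/siNS only, chr7:95608946-95609146: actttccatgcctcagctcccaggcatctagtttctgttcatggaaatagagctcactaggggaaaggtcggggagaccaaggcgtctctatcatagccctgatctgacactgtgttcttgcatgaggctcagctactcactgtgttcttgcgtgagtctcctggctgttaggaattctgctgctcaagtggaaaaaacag
TXNIP, 147 bp upstream, summit in siCHD9/siHic5, chr1:145996626-145996826: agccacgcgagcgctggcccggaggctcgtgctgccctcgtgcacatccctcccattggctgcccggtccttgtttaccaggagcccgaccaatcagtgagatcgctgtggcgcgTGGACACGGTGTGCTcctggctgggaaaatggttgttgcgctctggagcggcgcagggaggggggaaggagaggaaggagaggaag
A GRE match was centered within 10 bp of the summit in the printed PDK4 (46.2 kb) and ANGPTL4 GBR, both called in all lists. The same held for GBR not printed and not called in siNS/siNS. They were at PCK1 (93.2 and 92.3 kb upstream), ANGPTL4 (4.75 kb downstream) and TXNIP (10.8 kb upstream). The printed PCK1, PPARGC1A and IRS2 windows held matches farther from the summit. The FOXO3, PFKFB3 and TXNIP (802 bp) windows and that of the PDK4 GBR called only in siHic5/siNS held none. The other PDK4 GBR called in all lists, 611 bp upstream of the TSS and not printed, held no GRE match in its 1-kb window or anywhere in its 885 bp.

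A GBR was called in siHic5/siNS and none in siNS/siNS at 5 of the 10 genes, which was so for 26.8% of all coding genes. In siNS/siNS, 4 GBR were assigned to 3 genes: 2 to PDK4, 1 to ANGPTL4 and 1 to TXNIP. In siHic5/siNS the 25 GBR lay near 8 genes, with 8 at PCK1, 4 at PDK4, 4 at ANGPTL4, 3 at FOXO3, 2 at IRS2, 2 at TXNIP and 1 each at PPARGC1A and PFKFB3. PCK1, FOXO3, PPARGC1A, PFKFB3 and IRS2 thus had a GBR called only in lists from Hic-5 depleted cells. TAT and FOXO1 had none in any list. The siCHD9/siHic5 list held 5 GBR at 3 genes, and the siBRM/siHic5 list 6 GBR at 5 genes. With Hic-5 present, depletion of CHD9 or of BRM gave 3 GBR at 2 genes each, in both cases PDK4 and ANGPTL4. An absent call does not mean that GR was absent, since each list ends at its own cutoff.

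**Figure D1:**
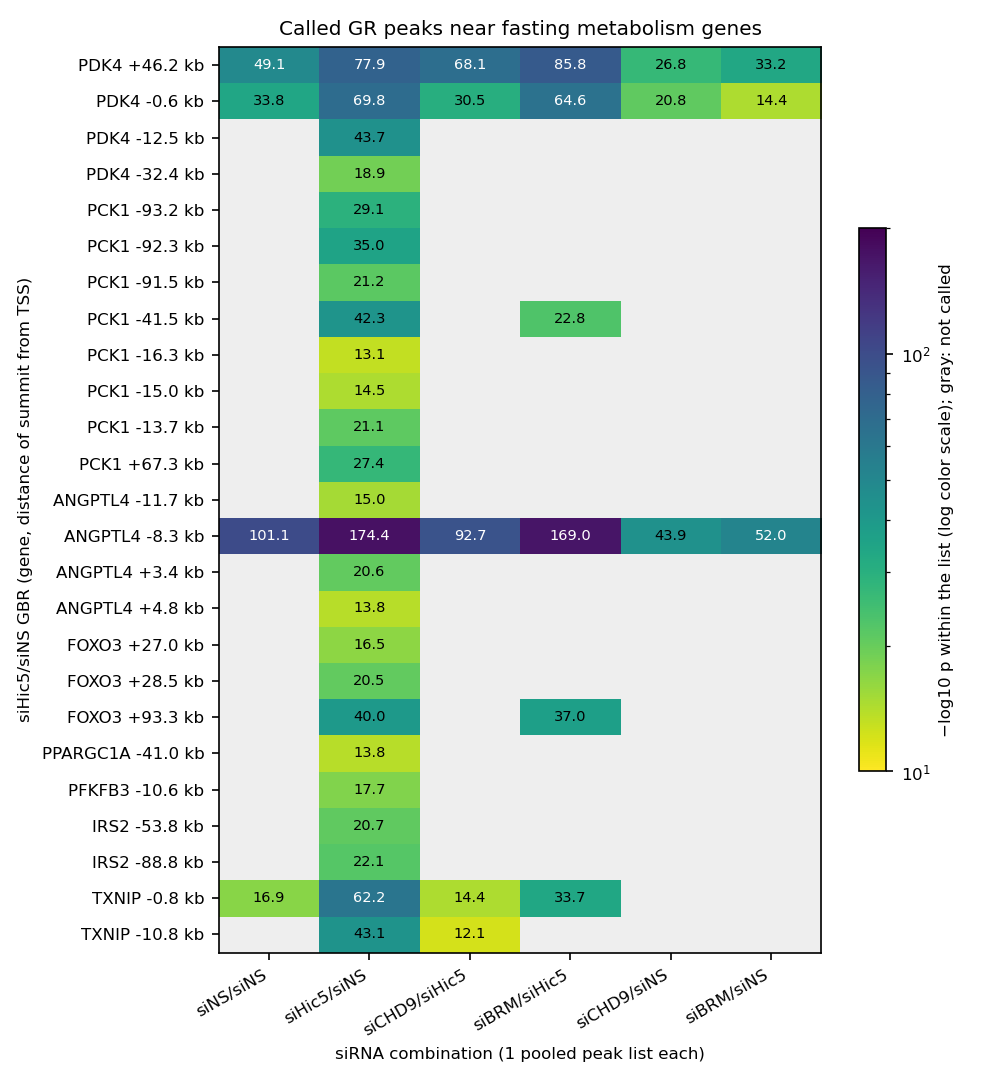
Fasting GBR (rows, by gene and distance of the summit from the TSS in kb, negative being upstream) against the 6 peak lists (columns). Color and number give the −log10 p of the called peak within its list, and gray marks no call. The siHic5/siNS column is filled for all 25 GBR, and 3 rows, at PDK4 and ANGPTL4, are filled in all 6 columns.

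The share of fasting GBR that appeared with Hic-5 depletion was near that of the whole list. Of the 25, 21 (84.0%, 95% Wilson interval 65.3 to 93.6%) had no overlapping siNS/siNS GBR, against 74.0% of all 9533 siHic5/siNS GBR. Such GBR are called blocked here, and the 4 others shared. The main blocked set of the paper was instead defined by a significant difference in GR binding. Part of that set was also called in control cells. Its rule was not applied here. No GBR was called in siCHD9/siHic5 at 20 of the 25 (80.0%, 60.9 to 91.1%), against 75.4% of all, or in siBRM/siHic5 at 19 (76.0%, 56.6 to 88.5%), against 65.4% of all. Absent from siCHD9/siNS and from siBRM/siNS were 22 each (88.0%, 70.0 to 95.8%), against 85.5% and 86.9% of all. Both doubly depleted lists lacked 18 (72.0%, 52.4 to 85.7%), against 61.8% of all. Among the 21 blocked fasting GBR alone, 20 were absent from siCHD9/siHic5, where the background was 90.6% of all blocked GBR, and 19 from siBRM/siHic5, where it was 83.3%. All these intervals hold the background share, and they cover counting error only. GBR of 1 gene share their surroundings and are not replicates.

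The 25 GBR fell into 5 patterns of calls. Called only in siHic5/siNS were 18 (58.7% of all siHic5/siNS GBR had this pattern). GBR called in all 6 lists numbered 3 (9.25% of all). The TXNIP GBR at 802 bp was called in both lists without CHD9 or BRM depletion and in both double depletions (3.05% of all). A GBR at PCK1 and another at FOXO3 were called in siHic5/siNS and siBRM/siHic5 only (7.91% of all). The distal TXNIP GBR was called in siHic5/siNS and siCHD9/siHic5 only (2.59% of all).

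**Figure D2:**
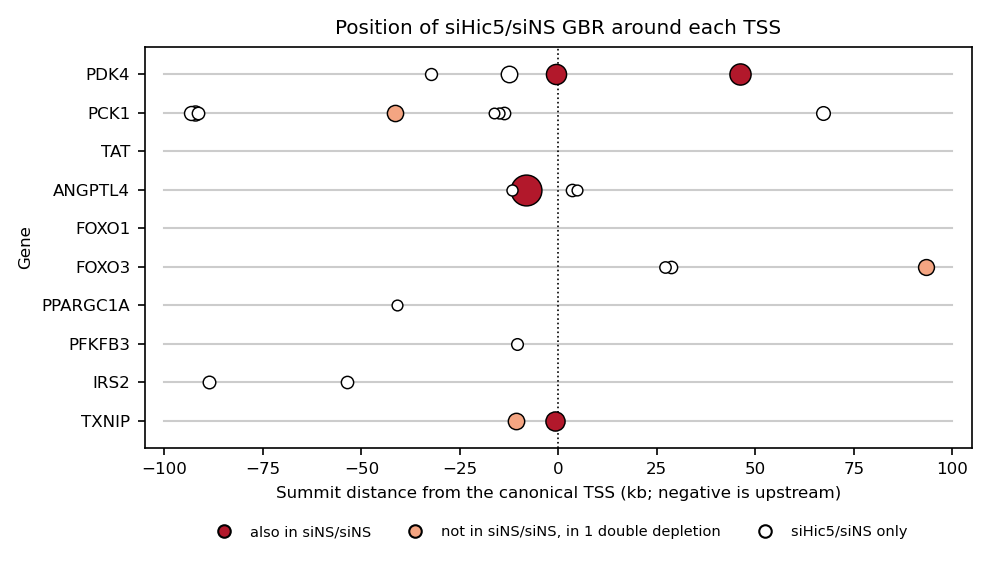
Summit distance of the 25 fasting GBR from the canonical TSS of their gene, in kb, with upstream to the left and 1 line per gene. Circle area grows with −log10 p in siHic5/siNS, and fill marks the lists in which a GBR was called. Shared GBR (dark red) lie only at PDK4, ANGPTL4 and TXNIP, and the lines of TAT and FOXO1 are empty.

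Of the genes that spare glucose and handle fat, ANGPTL4 had the strongest GBR. ANGPTL4 (ENSG00000167772.12, chromosome 19, plus strand, 8364155 to 8374370) encodes a secreted inhibitor of lipoprotein lipase. The start and end given beside a gene ID, here and below, are those of the canonical transcript. Its main GBR is intergenic, from 8355470 to 8356332, with the summit 8.27 kb upstream of the TSS. The −log10 p-value, which measures enrichment over input within a list and grows with depth, was 101 in siNS/siNS, 174 in siHic5/siNS, 92.7 in siCHD9/siHic5, 169 in siBRM/siHic5, 43.9 in siCHD9/siNS and 52.0 in siBRM/siNS. It was the strongest fasting GBR of every list by this measure. By rank, in lists that differ in length, it stood at 101 of 2582, 125 of 9533, 124 of 2451, 134 of 3383, 194 of 1415 and 115 of 1278 in the same order. The MACS2 signal value was 22.9, 34.0, 20.5, 26, 8.87 and 14.5 in that order. Both scales were highest in siHic5/siNS and lowest in siCHD9/siNS. In the other lists the summit lay at most 26 bp from its place in siHic5/siNS.

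The 3 other ANGPTL4 GBR were weaker than the main one and were called only in siHic5/siNS. They lie 11.7 kb upstream (−log10 p 15.0, nearest coding TSS that of KANK3), and in the ANGPTL4 introns 3.44 kb (20.6) and 4.75 kb (13.8) downstream of the TSS. The intronic GBR at 4.75 kb held a GRE match centered 9 bp from its summit, and the stronger intronic GBR at 3.44 kb held no match to any motif searched.

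PDK4 (ENSG00000004799.8, chromosome 7, minus strand, 95583499 to 95596516) encodes a kinase that shuts off pyruvate dehydrogenase and so spares glucose. It was the only gene of the set with 2 GBR called in all 6 lists. The distal GBR is intergenic, 46.2 kb downstream of the TSS, from 95550032 to 95550581. Its −log10 p was 49.1 in siNS/siNS, 77.9 in siHic5/siNS, 68.1 in siCHD9/siHic5, 85.8 in siBRM/siHic5, 26.8 in siCHD9/siNS and 33.2 in siBRM/siNS. The proximal GBR, 611 bp upstream of the TSS from 95596660 to 95597544, gave 33.8, 69.8, 30.5, 64.6, 20.8 and 14.4 in the same order. The distal GBR was the stronger of the pair in every list by −log10 p. By the signal value the order was the opposite in siHic5/siNS, with 14.3 at the distal and 16.3 at the proximal GBR.

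By rank of −log10 p the proximal PDK4 GBR stood at 682 of 2582 in siNS/siNS, 962 of 9533 in siHic5/siNS, 744 of 2451 in siCHD9/siHic5, 697 of 3383 in siBRM/siHic5, 615 of 1415 in siCHD9/siNS and 902 of 1278 in siBRM/siNS. The distal GBR stood at 353, 775, 232, 450, 423 and 244 in the same order. The lists differ in length and these ranks have no replicate error, so no change between lists was read from them. In the other lists the distal summit lay at most 12 bp from its place in siHic5/siNS, and the proximal summit at most 148 bp.

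PDK4 had 2 further GBR, both intergenic and called only in siHic5/siNS. That at 12.5 kb upstream (95608756 to 95609307) had a −log10 p of 43.7, the highest of the 18 fasting GBR called in no other list, and that at 32.4 kb upstream (95628702 to 95629330) had 18.9. Among the 1977 siHic5/siNS GBR at least as strong as the former, 69 (3.49%) were called in no other list. The printed 201 bases of this GBR held none of the 5 motifs. In its 1-kb window a GRE match was centered 125 bp from the summit.

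TXNIP (ENSG00000265972.6, chromosome 1, minus strand, 145992435 to 145996579) encodes an arrestin-like protein that binds thioredoxin and lowers glucose uptake. Its proximal GBR had a −log10 p of 16.9 in siNS/siNS, 62.2 in siHic5/siNS, 14.4 in siCHD9/siHic5 and 33.7 in siBRM/siHic5, and was called in neither single depletion. Each of the 4 siNS/siNS fasting GBR was called in siHic5/siNS (3.18% of all siNS/siNS GBR were missing there) and in siBRM/siHic5 (16.6%). The TXNIP GBR was the only one of them missing from siCHD9/siNS (51.4% of all siNS/siNS GBR were missing) and from siBRM/siNS (52.2%). It was also the weakest of the 4, at rank 1758 of 2582 in siNS/siNS.

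The proximal TXNIP peak was not the same peak in every list. In siHic5/siNS it was 1293 bp wide, from 145996456 to 145997748, the widest of the 25, with the summit 802 bp upstream of the TSS. The summits in siNS/siNS and siBRM/siHic5 lay 3 bp and 27 bp from that position. In siCHD9/siHic5 the called peak ran from 145996567 to 145996947, with its summit 147 bp upstream of the TSS and 655 bp from the siHic5/siNS summit. It overlapped the wide siHic5/siNS peak but lay 219 bp from the siNS/siNS peak, so that 1 of the 4 siNS/siNS GBR had no overlapping siCHD9/siHic5 peak (34.2% of all siNS/siNS GBR had none). Matched by overlap the GBR counts as kept without CHD9, and matched by summits within 200 bp it does not, which raises the absent share from 80.0% to 84.0%. The sequences differ as well. The only GRE match in the wide peak lay at 145996741 to 145996755, 22 bp from the siCHD9/siHic5 summit, and the 1-kb window around the siHic5/siNS summit held none. A FOXO match lay near both summits, at 7 bp from that in siHic5/siNS and at 26 bp from that in siCHD9/siHic5.

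The distal TXNIP GBR, 10.8 kb upstream from 146007152 to 146007626, was called in siHic5/siNS with a −log10 p of 43.1 and in siCHD9/siHic5 with 12.1. Both summits were at the same base. Its window held the GRE match GGGACATTGTGTGCT without a mismatch, 7 bp from the summit, and an AP-1 match. In siCHD9/siHic5 its −log10 q was 8.34, below the lowest value in the siBRM/siHic5 list, 14.2. The cutoff of the siBRM/siHic5 list is not known, and q-values are not normalized between lists. The missing call there thus cannot be told apart from a difference in cutoff.

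Among the genes of glucose production, PCK1 had the most GBR and none of them in control cells. PCK1 (ENSG00000124253.11, chromosome 20, plus strand, 57561110 to 57568121) encodes the cytosolic PEP carboxykinase, a rate-limiting enzyme of gluconeogenesis. Its 8 GBR had −log10 p-values from 13.1 to 42.3 in siHic5/siNS. The strongest, 41.5 kb upstream from 57519318 to 57519850, lies in an intron of CTCFL, whose TSS is 5.58 kb away. It was called again in siBRM/siHic5 with 22.8, and not in siCHD9/siHic5. It held a GRE match without a mismatch 27 bp from the summit and another match at 43 bp. Of the 7 called only in siHic5/siNS, 3 lay side by side from 91.5 to 93.2 kb upstream with −log10 p of 21.2, 35.0 and 29.1, each with a GRE match. Another 3 lay from 13.7 to 16.3 kb upstream with 21.1, 14.5 and 13.1, and 1 lay 67.3 kb downstream with 27.4, 7.94 kb from the TSS of ZBP1. Other coding TSS were nearer than that of PCK1 for 5 of the 8.

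The count at PCK1 was high among coding genes. At least 8 siHic5/siNS GBR within 100 kb were found at 101 of 20007 protein-coding genes (0.505%). Counts identical to those of PCK1 in all 6 lists (summed absolute difference of 0) were found at 4 genes, of which CDH15, CTCFL and HMGB1P1 come first by symbol. CTCFL and HMGB1P1 are neighbors of PCK1 on chromosome 20 whose windows take in the same region, while CDH15 is on chromosome 16.

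PPARGC1A had 1 called GBR and TAT none within 100 kb. PPARGC1A (ENSG00000109819.9, chromosome 4) encodes PGC-1α, the coactivator of gluconeogenic and mitochondrial genes. Its only GBR, 41.0 kb upstream from 23930772 to 23931301, had a −log10 p of 13.8 in siHic5/siNS, where 85.1% of the list was stronger, and was called in no other list. TAT (ENSG00000198650.11, chromosome 16) encodes the amino acid-degrading enzyme tyrosine aminotransferase, a classic glucocorticoid-induced gene of the liver. The GBR nearest to its TSS in any list was 132 kb away, in siHic5/siNS, and the nearest in siNS/siNS was 715 kb away.

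FOXO3, IRS2 and PFKFB3 had no GBR in siNS/siNS and 3, 2 and 1 in siHic5/siNS, and FOXO1 had none in any list. FOXO3 (ENSG00000118689.15, chromosome 6, plus strand) encodes a transcription factor that insulin inactivates. It had 3 intronic GBR, at 27 kb (108587672 to 108588050), 28.5 kb (108589245 to 108589657) and 93.3 kb (108653981 to 108654455) downstream of the TSS, with −log10 p of 16.5, 20.5 and 40.0. The last was called again in siBRM/siHic5 with 37.0, its summits being 8 bp apart. It held an ETS match 12.5 bp from the summit and no GRE match, and was absent from siCHD9/siHic5. FOXO1 (ENSG00000150907.10, chromosome 13), a related factor that drives gluconeogenic genes, had its nearest GBR 260 kb away in siHic5/siNS and 314 kb away in siNS/siNS.

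IRS2 (ENSG00000185950.9, chromosome 13, minus strand) encodes an adapter of the insulin receptor. Its GBR, 53.8 kb (109840094 to 109841071) and 88.8 kb (109875162 to 109875600) upstream, are intergenic and had −log10 p of 20.7 and 22.1. PFKFB3 (ENSG00000170525.21, chromosome 10, plus strand) encodes an enzyme that makes an activator of glycolysis. Its GBR, 10.6 kb upstream of the canonical TSS (6192174 to 6192464), lies in an intron of a longer PFKFB3 transcript and had 17.7. All 3 were called in siHic5/siNS alone.

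Within siHic5/siNS the 4 shared fasting GBR were stronger than all 21 blocked ones, with no overlap. The shared GBR had −log10 p of 174, 77.9, 69.8 and 62.2, and the blocked GBR ranged from 13.1 to 43.7. The medians were 73.9 and 20.7, beside 54.7 and 18.7 over all shared and all blocked GBR. In the whole list 100 of 7059 blocked GBR (1.42%) reached the value of the weakest shared fasting GBR. Shared GBR of the whole list also reached into the range of the blocked ones, with 150 of them at a −log10 p from 10 to 20. Over the 25 the median was 21.2, against 22.4 over all 9533 (quartiles 15.8 and 38.0). Strength also differed among the blocked GBR. Those called again in a double depletion had 43.1, 42.3 and 40.0, and of the 18 called only in siHic5/siNS the PDK4 GBR at 12.5 kb alone was above them. With only the 1000 strongest peaks of every list, the 3 GBR called in all lists were the only ones left in siHic5/siNS, and the blocked share went from 84.0% to 0%. The strongest blocked fasting GBR stood at rank 1974 in siHic5/siNS, so this outcome was fixed by the strengths above. The blocked share over all GBR is not given at this setting, so the change is not read as particular to fasting GBR.

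**Figure D3:**
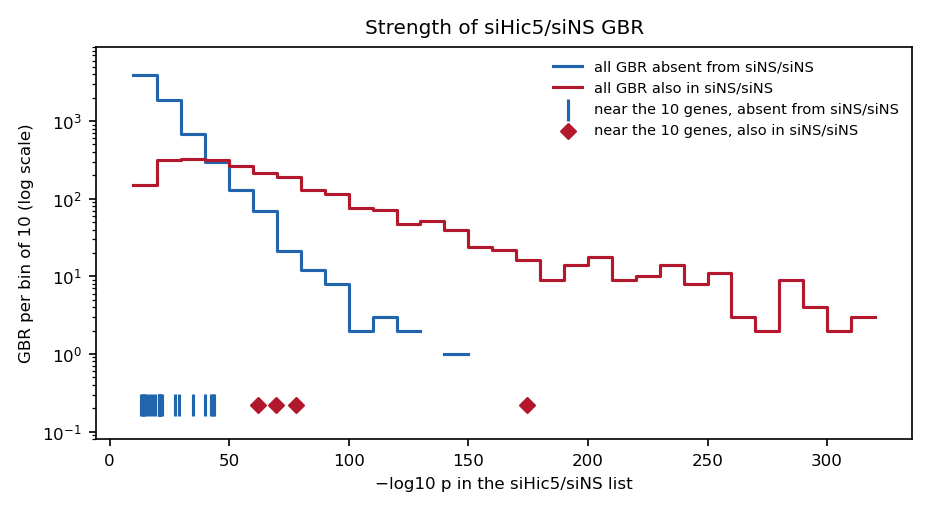
Number of siHic5/siNS GBR (y axis, log scale, bins of 10) by −log10 p (x axis), for those absent from siNS/siNS (blue line) and those also called there (red line). Marks at the bottom, whose height has no meaning, give the 25 fasting GBR: the 21 blocked ones end at 43.7 and the 4 shared ones begin at 62.2.

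The summits of 18 fasting GBR were intergenic with respect to coding genes, and 7 were intronic. The assigned gene had the nearest coding TSS for 19, and another gene for 6. No share over all siHic5/siNS GBR is given for these counts, so they are not read as particular to fasting GBR. A summit lay within 1 kb of a coding TSS at 2 (8.0%), those of PDK4 and TXNIP, against 4.56% of all siHic5/siNS GBR. The farthest fasting GBR was that of FOXO3 at 93.3 kb. The closest GBR beyond the limit lay 104 kb from the TXNIP TSS, with a −log10 p of 113, and was called in all 6 lists.

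Most fasting GBR had a GRE match near the summit, as did most GBR of the list. Motifs were searched on both strands of the 1-kb window around each siHic5/siNS summit: the palindromic GRE consensus (15 bases, at most 1 mismatch at its 10 defined positions), TGACTCA for AP-1, GTAAACA for FOXO, TGACGTC for CREB, and for ETS the core GGAA preceded by CA or CC and followed by A or G and then C or T. A GRE was found at 15 of 25 (60.0%, 95% Wilson interval 40.7 to 76.6%), against 53.6% of all GBR and 12.6% of windows 5 kb to either side. These windows flank all siHic5/siNS GBR and are not local controls for the fasting GBR. AP-1 was found at 9 (36.0%, 20.2 to 55.5%; 37.1% of all), ETS at 6 (24.0%, 11.5 to 43.4%; 37.9% of all) and CREB at 1 (4.00%, 0.710 to 19.5%; 3.15% of all). FOXO was found at 7 (28.0%, 14.3 to 47.6%), against 14.4% of all GBR and 12.7% of the windows to either side. The share of all GBR lies within each of these 1-kb intervals, whereas the share of the windows to either side lies below them for GRE, AP-1 and FOXO. Without a mismatch the GRE was found at 2 (8.0%; 11.2% of all), the PCK1 GBR at 41.5 kb and the distal TXNIP GBR. In the narrower window of 200 bp, 13 held a GRE (52.0%; 46.2% of all), 6 AP-1 (24.0%; 19.5% of all), 3 FOXO (12%, 4.17 to 30.0%; 3.79% of all), 1 ETS (4.0%; 13.9% of all) and 0 CREB (1.1% of all). The FOXO interval in this window leaves out the share of all GBR by a narrow margin and rests on 3 GBR. It is the only interval to do so over all motifs and windows searched. The motifs were chosen with earlier results of these data known, and GBR of the same gene are not replicates. The FOXO difference is therefore a description and no test of enrichment.

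**Figure D4:**
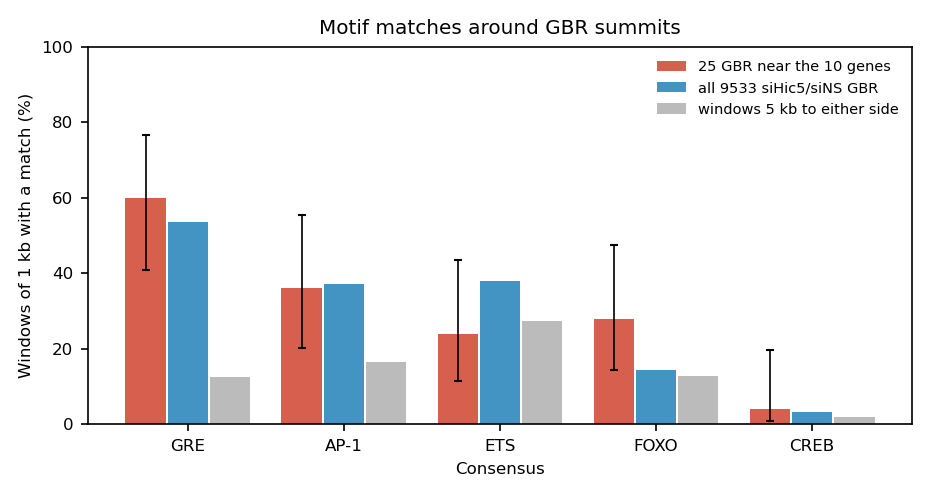
Share of 1-kb windows (%) with a match to each consensus at the 25 fasting GBR (red, error bars being 95% Wilson intervals) and at all 9533 siHic5/siNS GBR (blue). Gray bars give windows 5 kb to either side of all 9533 GBR. The blue bars lie within the intervals of the red bars for all 5 motifs.

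Both GBR next to a TSS, at PDK4 and TXNIP, held a FOXO match and no GRE, AP-1 or ETS match in the 1-kb window. No match to these 3 motifs was found at 6 of the 25 (24.0%), against 16.2% of all GBR. Over the 435 siHic5/siNS GBR within 1 kb of a coding TSS, a GRE was found at 39.1% and a FOXO match at 9.66%. The PDK4 match lay 254 bp from the summit and that of TXNIP 7 bp. The other FOXO matches were at the PDK4 GBR 32.4 kb upstream, the PCK1 GBR at 16.3 kb, the FOXO3 GBR at 28.5 kb, the PFKFB3 GBR and the IRS2 GBR at 88.8 kb. Of the 15 fasting GBR with a GRE, the nearest match was centered 5 to 125 bp from the summit (median 25), and within 30 bp at 10. A GRE was present at 2 of 4 shared and 13 of 21 blocked fasting GBR (61.9%), against 66.9% of all shared and 48.9% of all blocked GBR. A match is a description of the sequence and does not show that a factor was bound.

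The share of the 10 genes with a GBR nearby was above that of coding genes in every list. In siHic5/siNS it was 8 of the 10 genes (80.0%, 95% Wilson interval 49 to 94.3%), against 43.6% of 20007 protein-coding genes, and in siNS/siNS 3 of 10 (30.0%, 10.8 to 60.3%), against 17.0%. The shares were 30.0% (10.8 to 60.3%) against 16.4% in siCHD9/siHic5 and 50% (23.7 to 76.3%) against 22.2% in siBRM/siHic5. In siCHD9/siNS and siBRM/siNS they were 20.0% each (5.67 to 51.0%), against 10.5% and 9.93%. The intervals for siHic5/siNS and siBRM/siHic5 leave out the share of coding genes, and those for the other lists hold it. PDK4 and ANGPTL4 had a GBR in every list, so the lists are not independent. The 10 genes were chosen with earlier results of these data known, so these shares are a description and no test of enrichment.

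A list of 49 other genes of fasting metabolism gave 31 with a GBR in siHic5/siNS (63.3%, 49.3 to 75.3%; 43.6% of all coding genes) and 12 in siNS/siNS (24.5%, 14.6 to 38.1%; 17.0% of all). CPT1A, PPARA, FBXO32, TRIM63, DDIT4 and ARRDC2 had a GBR in all 6 lists, as did PDK4 and ANGPTL4 of the 10 genes and 7.49% of all coding genes. CPT1A brings fatty acids into mitochondria, PPARA is the receptor that turns on fat burning, and FBXO32 and TRIM63 are ubiquitin ligases of muscle wasting. DDIT4, an inhibitor of mTORC1, had the most, with 7 GBR in siNS/siNS, 9 in siHic5/siNS, 7 in siCHD9/siHic5, 8 in siBRM/siHic5 and 5 in each single depletion. ARRDC2, a relative of TXNIP, had 4, 5, 4, 3, 3 and 3 in the order siNS/siNS, siHic5/siNS, siCHD9/siHic5, siBRM/siHic5, siCHD9/siNS and siBRM/siNS.

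By function, a siHic5/siNS GBR was near 5 of 8 genes of glucose production, 6 of 8 that control pyruvate use and glycolysis, 5 of 10 of fat use, 5 of 7 of amino acid and protein breakdown, 4 of 6 of insulin and energy signaling, 5 of 6 TXNIP relatives and sugar sensors, and 1 of 4 coactivators. In siNS/siNS the counts were 2, 2, 2, 3, 0, 3 and 0. Over all coding genes these shares were 43.6% and 17.0%, and groups this small were not compared with them. In the insulin group INSR, IRS1, PIK3R1 and PRKAA2 had 1 siHic5/siNS GBR each, and SESN1 and FOXO4 had none in any list. Of the 19 genes that were new in siHic5/siNS, 2 (PFKFB4 and INSR) had a GBR in siCHD9/siHic5 and 5 (PFKFB1, PFKFB2, PFKFB4, INSR and PPARGC1B) in siBRM/siHic5. Over all 5368 coding genes new in siHic5/siNS, 11.7% had one in siCHD9/siHic5 and 23.8% in siBRM/siHic5. No list had a GBR at 18 of the 49 genes, among them TDO2, SDS and PCK2. A siHic5/siNS GBR was also missing at most coding genes, since 43.6% of them had one. The share of coding genes with no GBR in any list is not given here, so these absences are not read as particular to fasting genes.

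**Figure D5:**
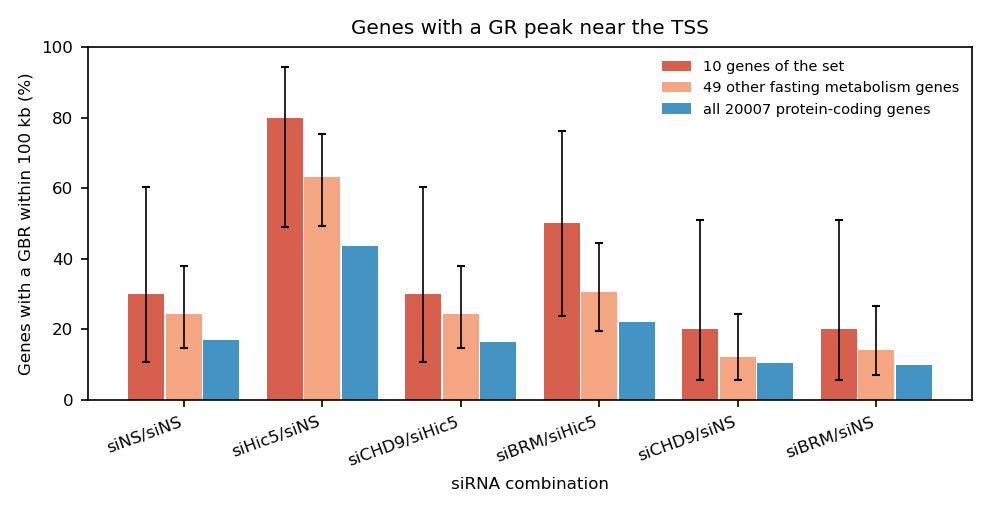
Share of genes (%) with a GBR within 100 kb of the TSS in each list, for the 10 genes (red), the 49 others of fasting metabolism (orange) and all 20007 protein-coding genes (blue), with 95% Wilson intervals on the first 2. All shares are highest in siHic5/siNS, at 80.0%, 63.3% and 43.6%.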

How the data were processed

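GR ChIP-seq peak lists were analysed for 6 siRNA combinations in U2OS-GRα cells (12 ChIP and 6 input libraries). The authors aligned reads to GRCh38/hg38 (BWA), filtered out duplicates and mitochondrial alignments, and pooled the replicates for MACS2 peak calling within the IDR framework. The versions and the IDR threshold are not given in the sources used here. The deposited lists give a signal value (MACS2 fold enrichment by the format, CPM by the supplement), a score (10 times the −log10 p), the −log10 p and −log10 q of each peak as the authors obtained them. None is normalized between lists, so values are set side by side without a test. Read depth is not part of the lists. The lists held 1278 to 9533 GBR, with lowest −log10 q from 7.26 to 14.2.

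Peaks were matched by overlap of at least 1 bp. TSS and the start and end given beside gene IDs were those of canonical transcripts in GENCODE release 44. Annotation used coding genes only. Coordinates count from 1. Shares have Wilson intervals at 95% confidence (counting error only). The genes, the list of 49 genes and the motifs were chosen with earlier results of these data known. All 10 genes are named with all their GBR. The genes most like PCK1 were those with the smallest summed difference in GBR counts. Overlap and motif searches were tested on simulated data. Alternatives were other overlap rules, cutoffs, TSS distances, TSS choices and motif settings. Python 3.11.15, pandas 2.3.3, NumPy 2.4.6, pysam 0.24.0, samtools 1.23.1, bedtools 2.31.1 and Matplotlib 3.10.9 were used.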

Additional observations from a re-analysis of the deposited data

How the results depend on the processing

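Of 102 values under alternatives, 77 stayed within 1.5 times the count or within the 95% Wilson interval of the share, 25 moved and 0 reversed. Counts and single shares have no direction, so the absence of reversals says nothing about stability. With a −log10 q of at least 20 in every list there were 11 siHic5/siNS GBR at 5 genes and 3 siCHD9/siHic5 GBR, and 54.5% of the siHic5/siNS GBR were absent from siBRM/siHic5. With a −log10 q of at least 14.2, the minimum of siBRM/siHic5, in every list there were 3 siCHD9/siHic5 GBR. With the 1000 strongest peaks of each list there were 3 siHic5/siNS GBR at 2 genes, 3 siCHD9/siHic5 GBR and 3 siBRM/siHic5 GBR at 2 genes, and 0% of the siHic5/siNS GBR were absent from siNS/siNS, siCHD9/siHic5 or siBRM/siHic5. Within 10 kb of the TSS there were 5 siHic5/siNS GBR at 3 genes, 3 siCHD9/siHic5 GBR and 3 siBRM/siHic5 GBR at 3 genes, with 40.0% absent from each of siNS/siNS, siCHD9/siHic5 and siBRM/siHic5. These alternatives keep fewer peaks by construction. No share over all siHic5/siNS GBR is given at these settings, so the changes are not read as particular to fasting GBR. The GRE share was 8.0% with no mismatch, and in the 200-bp window the shares were 4.0% for ETS, 12% for FOXO and 0% for CREB, against 13.9%, 3.79% and 1.1% of all GBR. No paired analysis was possible because each list was called on pooled replicates, and for the same reason no replicate could be left out. Read depth is not part of the lists, so its part in the missing calls was not tested.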

Other observations

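Several fasting GBR lay close together. With a distance of 3 kb between summits, chosen after the values were seen, 10 of the 25 (40.0%) had another siHic5/siNS GBR nearby, against 15.6% of all siHic5/siNS GBR. They were the 3 PCK1 GBR from 91.5 to 93.2 kb upstream, the 3 PCK1 GBR from 13.7 to 16.3 kb upstream, the 2 intronic GBR of ANGPTL4 and 2 intronic GBR of FOXO3. All 10 were called only in siHic5/siNS, a pattern of 18 of the 25 fasting GBR and of 58.7% of all siHic5/siNS GBR. Its share among all siHic5/siNS GBR with such a neighbor is not given here. Neighbors count each other, so these 10 GBR make up 4 places and not 10 independent ones. The difference between 40.0% and 15.6% was not tested.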
